A study of Rattus norvegicus with 8 samples.

Results

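The mitochondrial ribosomal proteins, the protein components of the ribosome that works inside mitochondria, were measured as transcripts in a rat hind-limb muscle of mostly fast fibres, the tibialis anterior. They were taken as every gene whose single array symbol starts with Mrps or Mrpl and a digit, which gave 73 of 14217 genes with a symbol of their own, 27 of the small (Mrps) and 46 of the large (Mrpl) subunit. Where a gene had several probe sets, the one with the highest mean over all arrays stood for it. All rats were adult Sprague-Dawley animals of 200 ± 40 g at the start, and RNA of 1 rat was hybridised to each of 8 Affymetrix arrays. The hyperthyroid group (replicates 1, 3, 5 and 2) had received 25 µg of triiodothyronine (T3, the active thyroid hormone) per 100 g of body weight intraperitoneally every 2 days for 6 weeks and was killed 24 hours after the last dose. The control group (replicates 7, 8, 9 and 11) was untreated, with no sham injection named in the labels. Each group held 3 males and 1 female, and the labels do not say which array is which.

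The mitochondrial ribosome translates the few messenger RNAs of mitochondrial DNA, all of which encode membrane subunits of the respiratory chain and of ATP synthase. Its RNAs are made in the organelle, while all of its proteins are encoded in the nucleus, made in the cytosol and imported, so that both genomes supply 1 machine. Many of the proteins have a counterpart in the bacterial ribosome, and the others were added during the evolution of mitochondria. Thyroid hormone is known to raise mitochondrial mass and oxidative capacity in muscle, in part through the coactivator Ppargc1a and the nuclear respiratory factors.

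The arrays fitted their labelled tissue, with all 10 fast-fibre markers above the filter and a summed intensity of 287798 to 352699 on hyperthyroid and 341045 to 413635 on control arrays. The 8 slow-fibre markers summed to 1394 to 8919 against 4504 to 43137, with control replicates 7 and 11 far above the rest, at 43137 and 29446. In whole muscle, fewer cells of a type and less RNA per cell cannot be told apart. With 4 arrays per group, their number limits the precision of every value here.

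As deposited, these transcripts lay about evenly on both sides of no difference. Of the 73 genes, 36 had a log2 fold change (hyperthyroid over control) above 0 and 37 below, with a median of -0.0012, against -0.00067 over all 10194 genes tested, of which 50% lay above 0. The balance depends on the scaling: after quantile normalization 31 of the 73 lay above 0 and 25 above the median of all genes, and their median was -0.045 against 0.023 for all genes. Differences were small: 49 of the 73 lay within 0.2 log2 units of 0, against 4355 of all 10194 genes. The members were also brighter than most genes, with a median of the mean log2 value of 9.62 against 7.14. The range of log2 fold changes without Mrps18c ran from -0.50 for Mrpl58 to 0.42 for Mrpl15. All 73 lay above the filter on low values in the combined mean of both groups. A single member, Mrps18c, passed the threshold of an adjusted p of 0.05 over all genes (limma, Benjamini-Hochberg), and it was higher in the hyperthyroid group. Over all genes 0.0687% passed, that is 7 genes, each of them higher.

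Mrps18c, which encodes the small-subunit counterpart of bacterial protein S18, had intensities of 527, 804, 800 and 706 on hyperthyroid replicates 1, 3, 5 and 2. The control replicates 7, 8, 9 and 11 gave 386, 320, 312 and 274. The lowest hyperthyroid array thus stood above the highest control array, and the means were 709 ± 130 and 323 ± 46.6 (SD, n = 4 each). This was a rise of 2.17-fold, or 1.12 ± 0.18 (SE) on the log2 scale, with a limma adjusted p of 0.0387. The margin was narrow. With 1 array left out the log2 fold change stayed between 1.04 and 1.25. The call held only without hyperthyroid replicate 1 (limma adjusted p = 0.0310). It was lost without any of the other 7 arrays (limma adjusted p from 0.0768 without control replicate 7 to 0.197 without hyperthyroid replicate 3). It was also lost after quantile normalization (limma adjusted p = 0.0594), when the variance was not allowed to follow the level (0.351) and when single probe sets were tested over all 18608 that passed the filter (0.0577), though not over all probe sets without a filter (0.0168). Control replicates 7 and 11, where slow-fibre markers were high, were its highest and lowest control values. Without both its log2 fold change was 1.14 (limma adjusted p = 0.136).

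The 3 probe sets of Mrps18c did not behave alike. The called one, 1380447_a_at, is the brightest. The next, 1379378_at, had 171, 205, 176 and 143 in the hyperthyroid group against 190, 240, 210 and 159 in controls, in the same order of replicates, so that the groups overlapped (log2 fold change -0.19 ± 0.22 (SE) in a limma fit over all probe sets). The last, 1382418_at, was dim, at 6.65, 1.98, 1.75 and 2.32 against 16.1, 7.11, 8.21 and 23.8, and lay under the filter (-1.34 ± 0.59). When the probe sets of a gene that passed the filter were averaged, Mrps18c differed by 0.46 (limma adjusted p = 0.425). A measure of RNA integrity also differed between the groups: the ratio of the 3' to the 5' control probe set of Gapdh ran from 1.20 to 1.31 on hyperthyroid and from 1.33 to 1.46 on control arrays. The same ratio for actin overlapped, at 1.43 to 1.90 and 1.48 to 2.16. The part of RNA integrity in the result was not tested.

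**Figure D1:**
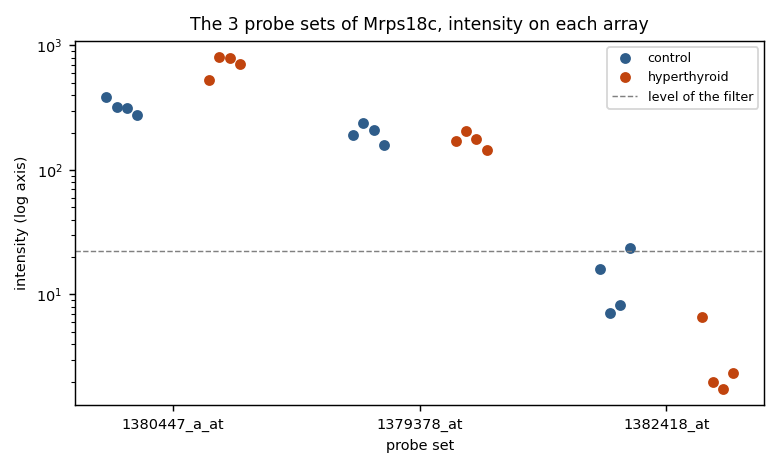
Intensity (log axis) of the 3 Mrps18c probe sets on each of the 4 control (blue) and 4 hyperthyroid (red) arrays, with the filter level of 22.5 as a dashed line. All 4 hyperthyroid arrays are higher for 1380447_a_at, the groups overlap for 1379378_at, and all 4 hyperthyroid arrays are lower for the dim 1382418_at.

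Mrps18c has paralogs on the array, Mrps18a and Mrps18b, which share its descent from bacterial S18. Mrps18a, which sits in the large subunit despite its symbol, had intensities of 853, 833, 688 and 679 against 804, 917, 798 and 657 in controls. Mrps18b had 1540, 1500, 1183 and 1297 against 1387, 1548, 1470 and 1066. Both pairs of groups overlapped throughout their range, with log2 fold changes of -0.055 ± 0.15 and 0.019 ± 0.15 (SE, limma adjusted p = 0.931 and 0.977). Their sign depends on the scaling: Mrps18a was at 0.17 after centring on array medians, and Mrps18b at -0.0093 after quantile normalization.

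The upstream sequences of the Mrps18 genes and of Mrpl58, the member with the lowest fold change, are given because they show the letters that recur in front of these genes. Each is the stretch of 250 bases before the RefSeq start (assembly GRCr8), 5' to 3', with capitals for matches to any of the 5 motifs of the next paragraph. A match that crosses the start is capitalised as far as the stretch goes.
Mrps18c, chr14:9122907-9123156, minus strand: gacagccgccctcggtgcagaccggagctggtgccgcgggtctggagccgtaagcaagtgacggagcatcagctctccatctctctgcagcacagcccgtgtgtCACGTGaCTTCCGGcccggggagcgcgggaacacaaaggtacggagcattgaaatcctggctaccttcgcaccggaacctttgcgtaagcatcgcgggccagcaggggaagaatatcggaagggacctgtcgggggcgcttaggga
Mrps18b, chr20:2842756-2843005, plus strand: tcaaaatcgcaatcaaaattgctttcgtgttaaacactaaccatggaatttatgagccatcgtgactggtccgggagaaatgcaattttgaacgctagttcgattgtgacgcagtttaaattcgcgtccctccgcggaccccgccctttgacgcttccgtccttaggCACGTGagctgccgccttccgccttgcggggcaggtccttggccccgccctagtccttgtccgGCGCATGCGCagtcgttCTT
Mrps18a, chr9:22367381-22367630, minus strand: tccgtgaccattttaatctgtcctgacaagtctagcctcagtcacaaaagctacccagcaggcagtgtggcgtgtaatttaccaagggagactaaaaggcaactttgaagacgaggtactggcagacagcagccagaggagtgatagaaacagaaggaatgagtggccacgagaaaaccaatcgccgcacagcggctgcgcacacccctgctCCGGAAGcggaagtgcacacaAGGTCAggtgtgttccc
Mrpl58, chr10:101145092-101145341, plus strand: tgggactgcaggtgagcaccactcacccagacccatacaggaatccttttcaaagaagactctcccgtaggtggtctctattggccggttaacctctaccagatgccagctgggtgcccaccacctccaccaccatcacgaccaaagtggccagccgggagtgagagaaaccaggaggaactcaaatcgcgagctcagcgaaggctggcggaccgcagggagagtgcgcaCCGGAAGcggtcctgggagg

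The motif CCGGAAG, the core bound by ETS factors such as Gabpa (nuclear respiratory factor 2), was found in all 4, on 1 strand or the other and for Mrps18b across the start (-3 to 3). In Mrps18c it lies at bases -139 to -133 from the start, with 1 base between it and a CACGTG, the E box of basic helix-loop-helix factors. Mrps18b also carries GCGCATGCGC, a form of the Nrf1 motif, at -20 to -11, and a CACGTG at -83 to -78. In a window of 300 bases (250 before and 50 after the start), read on both strands, 59 of the 73 members could be matched by gene identifier. CCGGAAG stood in 20 of these 59 (33.9%), against 18.5% of 8515 tested genes with a window and 9.63% of all 27457 genes. AAGATGGC, the core of Yy1, stood in 14 (23.7%, against 5.95% and 3.62%), and the Nrf1 motif in 9 (15.3%, against 10.6% and 4.82%). CACGTG stood in 6 (10.2%, against 10.1% and 7.08%), and AGGTCA, the hexamer read by thyroid hormone and other nuclear receptors, in 11 (18.6%, against 12.8% and 16.9%). Matches of different motifs may overlap, and these are counts of letters that were not tested. Of the 59 windows, 33 (55.9%) held at least 1 of the first 3, against 30.4% of tested genes. By subunit, CCGGAAG stood in 33.3% of 21 small and 34.2% of 38 large windows, the Nrf1 motif in 9.52% and 18.4%, and AAGATGGC in 28.6% and 21.1%. In Mrps18a an AGGTCA lies at -17 to -12.

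Besides Mrps18c, 4 small-subunit members had groups that did not overlap, and none of them passed the threshold. Mrps28, whose protein is the counterpart of bacterial S1, had intensities of 1284, 1271, 1370 and 1290 against 989, 1168, 997 and 1038 in controls. Mrps14, the counterpart of bacterial S14, had 1378, 1411, 1242 and 1284 against 1203, 1201, 1038 and 966. In both genes every hyperthyroid array lay above every control array. The log2 fold changes were 0.32 ± 0.12 for Mrps28 and 0.27 ± 0.13 for Mrps14 (SE, limma adjusted p = 0.379 and 0.4695). The second probe set of Mrps14 gave -0.14 ± 0.14.

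Mrps16, the counterpart of bacterial S16, went the other way, with 729, 880, 823 and 892 against 1189, 1203, 1047 and 992. Mrps22, a mitochondrial addition that is needed to build the small subunit, had 629, 589, 673 and 582 against 693, 844, 714 and 1087. Every hyperthyroid array lay below every control array in both, and control replicate 11 was the highest for Mrps22. Log2 fold changes were -0.41 ± 0.13 and -0.41 ± 0.16 (SE, limma adjusted p = 0.301 and 0.3998). With single arrays left out Mrps22 ran from -0.49 to -0.28, the latter without control replicate 11.

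Other small-subunit genes at the ends of the range overlapped between groups. Mrps23, a mitochondrial addition, had 1485, 1472, 1336 and 1413 against 1002, 1441, 1190 and 950, a difference of 0.33 ± 0.15 (SE, limma adjusted p = 0.441) in which control replicate 8 lay inside the hyperthyroid range. Without control replicates 7 and 11 Mrps23 was at 0.12. Mrps31 gave 0.37 ± 0.20, with control replicate 7 at 948 above all hyperthyroid arrays (716 to 818). Its difference was 0.58 without control replicate 7 and 0.23 without control replicate 9. At the lower end, Mrps27 gave -0.44 ± 0.21, with 108 to 140 against 131 to 209, and Mrps12, whose bacterial counterpart lines the decoding site, -0.21 ± 0.13, with 676 to 812 against 775 to 917. None of the 4 passed the threshold. The only other probe set of Mrps27 above the filter gave 0.19 ± 0.54.

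In the large subunit no member passed. As deposited, the groups of 4 of its 46 genes (8.7%) did not overlap, against 6.55% of all genes tested, and all 4 were lower in the hyperthyroid group. After centring on array medians or scaling to the hybridization controls, no member was lower without overlap. Mrpl58, a peptidyl-tRNA hydrolase that frees stalled ribosomes and is built into the large subunit, had 537, 636, 554 and 597 against 903, 821, 750 and 821. Mrpl55 had 873, 784, 712 and 676 against 925, 1016, 1156 and 1011. Neither gene had a hyperthyroid array within the control range. The log2 fold changes were -0.50 ± 0.13 and -0.43 ± 0.14 (SE, limma adjusted p = 0.237 and 0.296). The alternatives of the fit gave Mrpl58 a range below 0 (-0.54 to -0.18), and none of them called it.

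Mrpl40 and Mrpl57 are both mitochondrial additions. Mrpl40 had 686, 782, 687 and 657 against 875, 958, 814 and 814, and its second probe set gave -0.14 ± 0.19 (SE). Mrpl57 had 476, 561, 483 and 484 against 579, 564, 626 and 613, so that hyperthyroid replicate 3 and control replicate 8 were nearly level. The log2 fold changes were -0.30 ± 0.13 and -0.25 ± 0.13 (SE, limma adjusted p = 0.441 and 0.542), and each was above 0 (0.022 and 0.070) when arrays were scaled to the hybridization controls, where the median of all genes was 0.32. Mrpl16 and Mrpl19, counterparts of bacterial L16 and L19, gave -0.31 ± 0.14 and -0.32 ± 0.18 with overlapping groups (1700 to 2497 against 2328 to 2907, and 443 to 737 against 589 to 877). Without hyperthyroid replicate 5 they were at -0.20 and -0.19.

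Mrpl52 stood out by its second probe set. The brightest gave 221, 164, 206 and 145 against 308, 267, 174 and 256 (log2 fold change -0.43 ± 0.22 (SE), limma adjusted p = 0.526). The dimmer 1388654_at had 31.0, 61.5, 63.9 and 52.0 against 143, 114, 132 and 102, with no overlap. Its log2 fold change was -1.22 ± 0.34 (SE, limma adjusted p = 0.24 over the probe sets that passed the filter). Without control replicates 7 and 11 the brightest gave -0.24. Mrpl52 is a mitochondrial addition, and this probe set was singled out after its values were seen.

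At the upper end of the large subunit stood Mrpl15, the counterpart of bacterial L15. It had 2391, 2826, 2190 and 2612 against 1866, 2281, 1722 and 1644, with control replicate 8 inside the hyperthyroid range. The log2 fold change was 0.42 ± 0.14 (SE, limma adjusted p = 0.311), and its range over the alternatives was 0.33 to 0.74. Mrpl21, Mrpl32 and Mrpl47 gave 0.26 ± 0.17, 0.23 ± 0.14 and 0.16 ± 0.17, each with overlapping groups. Mrpl21 was at 0.17 without hyperthyroid replicate 3, 0.16 without control replicate 11 and 0.038 without control replicates 7 and 11. Mrpl47 ran from 0.089 without control replicate 11 to 0.29 without hyperthyroid replicate 5. Mrpl32, which a mitochondrial protease trims before it enters the ribosome, had 646 to 770 against 537 to 729.

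**Figure D2:**
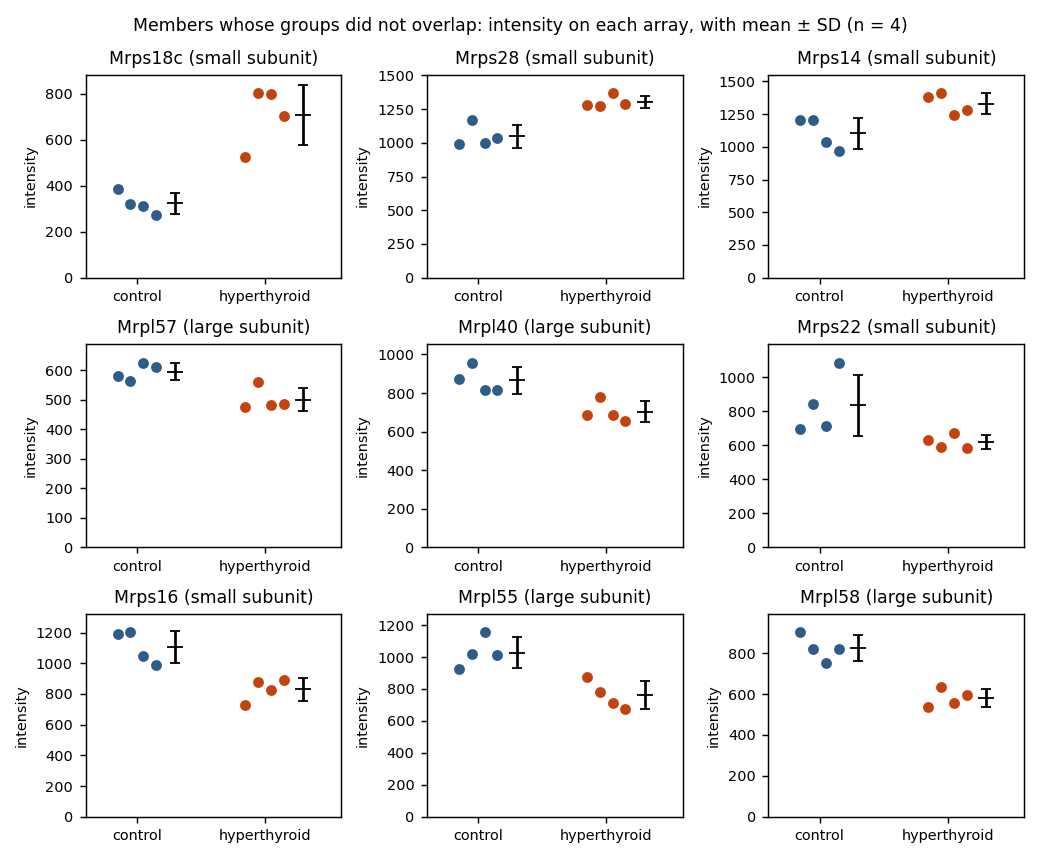
Intensity on each array, with the mean ± SD (n = 4) beside it, of the 9 members whose groups did not overlap, in order of fold change, with control in blue and hyperthyroid in red. Mrps18c has the widest difference, 2.17-fold, and the 4 large-subunit genes are all lower in the hyperthyroid group in the values as deposited.

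Counted over all members, 9 of 73 (12.3%) had groups that did not overlap, 3 higher and 6 lower, against 6.55% of all genes tested (3.35% higher and 3.21% lower). At an unadjusted limma p under 0.05 there were 11 members (15.1%), 5 higher and 6 lower, against 10.6% of all genes (5.39% higher and 5.21% lower). In the small subunit these counts were 5 of 27 and 6 of 27, and in the large subunit 4 of 46 and 5 of 46. The shares of all genes depend on their level. With the filter at the 60th percentile, which kept all 73 members, they were 7.31% without overlap and 12.0% at that unadjusted limma p. The split by direction belongs to the deposited scaling. After centring on array medians, 13 of the 73 members were higher and 0 lower at an unadjusted limma p under 0.05, against 15.2% of all genes in either direction. Scaled to the hybridization controls, 22 of the 73 were higher and 0 lower, against 20.4% of all genes in either direction. The shares of all genes were not split by direction under these scalings. Both steps moved the median of all genes, by 0.22 and 0.32. Each step moves the log2 fold change of every gene by the same amount, so it leaves the members' rank by fold change as it was. The counts without overlap did change. After centring on array medians 6 of the 73 had no overlap, all higher, against 9.33% of all genes in either direction. Scaled to the hybridization controls 14 of the 73 had none, all higher, against 11.4%.

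The 51 members not singled out lay between -0.30 (Mrpl12) and 0.24 (Mrps30), 26 above 0 and 25 below, and the smallest limma adjusted p among them was 0.492. Their groups all overlapped. Mrpl12, which forms the stalk that recruits translation factors, had 2310 to 3285 against 2946 to 3925, and its partner in the stalk base, Mrpl10, had 222 to 249 against 207 to 281. The steadiest genes included Mrpl17, at 1524 to 1785 against 1581 to 1766, and Mrpl50, at 1032 to 1106 against 1006 to 1144. In Mrpl42 the 4 control arrays ran only from 2550 to 2584, while the hyperthyroid arrays spread from 2271 to 2989.

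**Figure D3:**
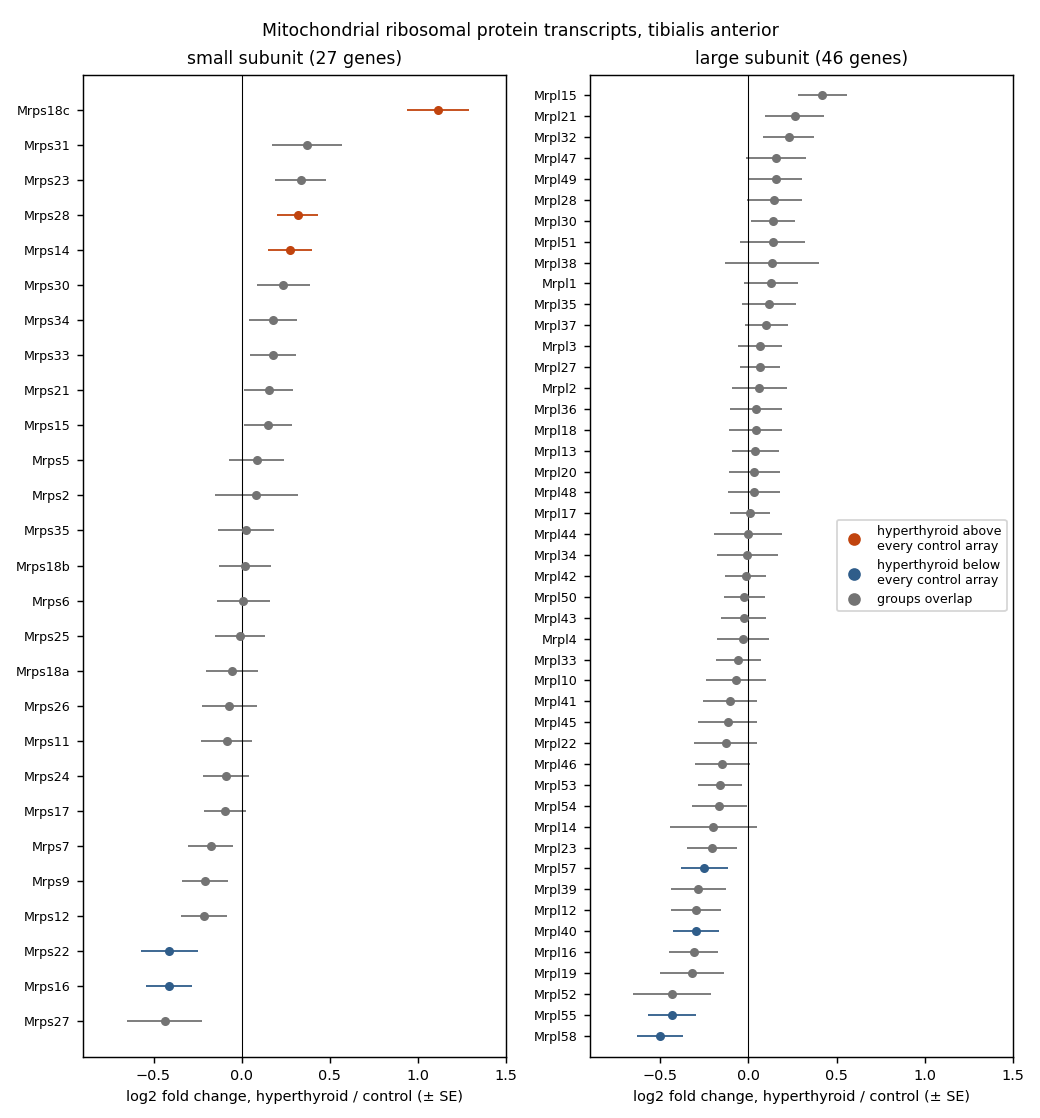
Log2 fold change (hyperthyroid over control) ± SE of limma for each of the 27 small-subunit and 46 large-subunit genes, ordered within the subunit. Red and blue mark genes in which the 4 hyperthyroid arrays lay above or below every control array; Mrps18c at 1.12 stands alone, and all others lie between -0.50 and 0.42.

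The subunits were set side by side by their medians. For the small subunit the median log2 fold change was 0.019 (15 of 27 genes above 0), and for the large subunit it was -0.011 (21 of 46 above 0). Their difference was 0.029. On single arrays the members were summarised by the median deviation from each gene's own mean over the 8 arrays. The small subunit had 0.056, 0.12, -0.12 and -0.038 on the hyperthyroid arrays, in the order 1, 3, 5 and 2. On the control arrays, in the order 7, 8, 9 and 11, it had -0.0046, 0.073, -0.060 and -0.070. The large subunit had 0.033, 0.057, -0.16 and -0.025 against 0.036, 0.090, -0.056 and 0.020. Both subunits lay on the same side of 0 on 6 of 8 arrays, and in each of them the groups overlapped. Hyperthyroid replicate 5 was lowest in both, and without it the medians of the log2 fold changes were 0.090 and 0.037. That array also had the highest summed intensity of 7 fibroblast and matrix markers (32765, against 3017 to 21547 in controls) and of the adipocyte markers (844, against 41.7 to 390.0 in controls) and the lowest of 8 slow-fibre markers (1394). Of 5 adipocyte markers on the array 3 lay above the filter, and Cidec and Lep did not. Their part in the result was not tested. The small subunit minus the large one gave 0.024, 0.064, 0.045 and -0.013 on hyperthyroid arrays and -0.041, -0.017, -0.0044 and -0.090 on control arrays, an overlap by 1 array. The difference of medians was 0.031 after quantile normalization, and with single arrays left out it ran from 0.0038 without hyperthyroid replicate 1 to 0.053 without hyperthyroid replicate 5. The per-array value of the small minus the large subunit had a mean of 0.030 on hyperthyroid and -0.038 on control arrays. Its SD between arrays of a group was 0.036, pooled over the groups. It is another measure than the difference of medians of log2 fold changes, and the groups were not tested on it.

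**Figure D4:**
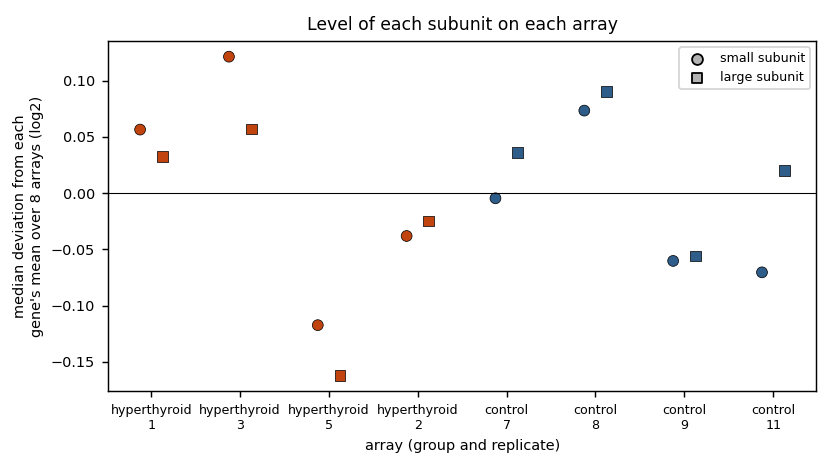
Median deviation (log2) of the small-subunit (circles) and large-subunit (squares) genes from their own means over the 8 arrays, for each hyperthyroid (red) and control (blue) array. Values run from -0.16 to 0.12, the groups overlap for both subunits, and hyperthyroid replicate 5 is lowest in both.

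Split by origin, the large subunit was uneven. Of its 19 mitochondrial additions 14 lay below 0, with a median of -0.11, while 16 of its 27 bacterial counterparts lay above 0, with a median of 0.040. In the small subunit the medians were 0.022 for 12 additions and 0.0081 for 15 counterparts. These 12 include the paralogs Mrps18a and Mrps18b, although both descend from bacterial S18, because only Mrps18c was counted as its counterpart. Set against the median of all genes, the additions of the large subunit were at -0.11 as deposited and at -0.16 after quantile normalization. The counterparts went from 0.041 to -0.014 with quantile normalization, so their side depends on the scaling, and without hyperthyroid replicate 3 or control replicate 9 their median was -0.0035 or -0.032. The median of the additions was -0.026 without hyperthyroid replicate 5, with 9 of 19 above the median of all genes, -0.041 without control replicate 11, -0.048 without control replicate 8 and -0.040 with array weights. This split was described and not tested. Counting Mrps18a and Mrps30 with the large subunit, where structures place their proteins, left the medians of both subunits at 0.019 and -0.011. The split by origin kept both among the small-subunit additions and was not repeated that way.

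Members with more than 1 probe set gave a check on single readings. There were 97 probe sets for the 73 genes, and 18 genes had several. Of the 24 probe sets that did not stand for their gene, 18 passed the filter, and 8 of these had the sign of the brightest probe set and 10 the opposite. Mrps9 was 1 of the genes whose probe sets matched (-0.21 and -0.18), and Mrpl12 1 of those that did not (-0.30 and 0.42, the second with 69.2 to 151 against 66.0 to 73.5 in controls).

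The genes that serve the mitochondrial ribosome were examined as lists, and none of their members passed over all genes in either direction. Of the 5 ribosomal proteins that carry other symbols, 1 lay above 0 and 4 below (median -0.035), among them Ptcd3 of the small subunit at -0.17 ± 0.14 and Gadd45gip1 of the large at -0.11 ± 0.13 (SE). The 12 measured translation factors had a median of 0.028. Tufm, the elongation factor that brings aminoacyl-tRNA to the ribosome, had 929 to 1278 in the hyperthyroid group against 1381 to 1669 in controls, with no overlap (log2 fold change -0.47 ± 0.14 (SE), limma adjusted p = 0.273). The release factor Mtrf1 had no overlap in the other direction, at 250 to 292 against 191 to 246 (0.30 ± 0.17, SE; 0.14 without control replicates 7 and 11). The initiation factor Mtif2 gave 0.40 ± 0.23 with overlap, and 0.25 without control replicate 9.

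Of 22 assembly and RNA modification factors 12 lay above 0 (median 0.056). Malsu1, which guards the large subunit against joining too early, had 993 to 1137 against 1184 to 1446, with no overlap (log2 fold change -0.34 ± 0.13 (SE), limma adjusted p = 0.381), and without control replicates 7 and 11 it was at -0.20. The methyltransferase Mrm3 gave 0.68 ± 0.28 and the maturation factor Rbfa -0.41 ± 0.23, which was -0.25 without control replicate 11. The 15 measured aminoacyl-tRNA synthetases and partners had a median of 0.042, and of these Hars2, Gatc and Ears2 had the smallest p (0.49 ± 0.26, 0.30 ± 0.17 and 0.79 ± 0.53, SE). Hars2 was at 0.30 without control replicate 9. Ears2 was at 0.37 without control replicate 11, and without control replicates 7 and 11 Gatc was at 0.074 and Ears2 at 0.21.

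Among 17 genes of mitochondrial transcription and RNA maturation the median was 0.024. Slirp, which with Lrpprc stabilises mitochondrial messenger RNAs, had 1528 on hyperthyroid replicate 1 and 2140 to 2230 on the others, against 1224 to 1568 in controls (log2 fold change 0.53 ± 0.15 (SE), limma adjusted p = 0.252). It passed when scaled to the hybridization controls (0.85, limma adjusted p = 0.0399). Under that scaling 113 of 10194 genes passed, all of them higher, and the median of all genes was 0.32. Tfam, which packs and transcribes mitochondrial DNA, gave 0.093 ± 0.13, and Polrmt, its RNA polymerase, 1.14 ± 0.68 at low intensity (30.0 to 114 against 3.73 to 61.3). Control replicate 11 held the lowest Polrmt value, and without it the difference was 0.42. Prorp, which cuts transfer RNAs from the primary transcripts, gave 0.38 ± 0.17.

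The regulators of nuclear mitochondrial genes showed no call either, with a median of 0.078 over 8 genes. Ppargc1a gave 0.20 ± 0.24, Gabpa 0.11 ± 0.20 and Yy1 0.27 ± 0.14 (SE). With single arrays left out Ppargc1a ran from 0.081 (without hyperthyroid replicate 2) to 0.39 (without control replicate 7), and Gabpa from 0.037 (without control replicate 11) to 0.26 (without control replicate 9). Esrra, an orphan nuclear receptor that acts with Ppargc1a, gave -0.44 ± 0.23, and -0.26 without hyperthyroid replicate 5. Nrf1 gave -0.92 ± 0.47 at low intensity, with 16.6 to 64.0 against 50.6 to 66.8, and was at -0.84 without control replicate 9 on the same probe set.

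**Figure D5:**
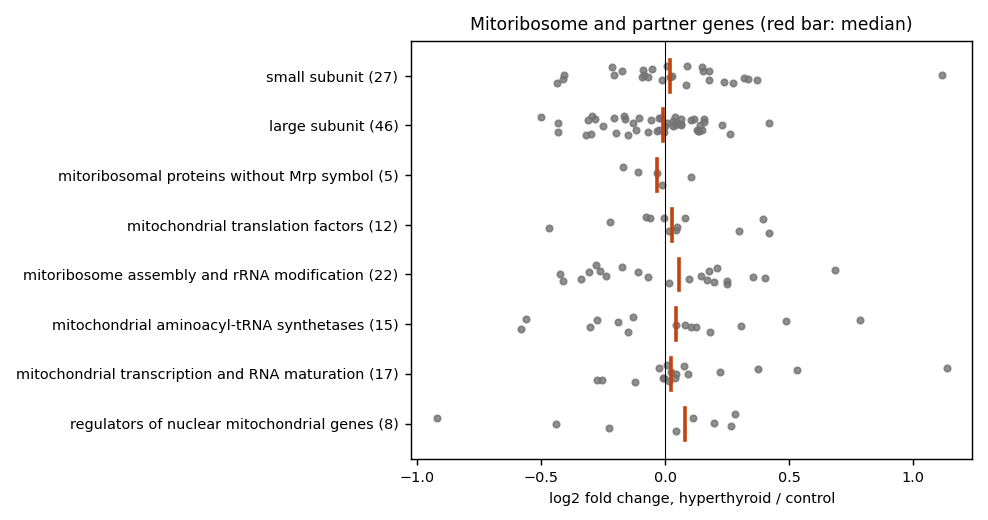
Log2 fold change (hyperthyroid over control) of each measured gene in the 2 subunits and in 6 lists of partner genes. The number of genes is in parentheses, the median is a red bar, and the black line is the median of all genes tested (-0.00067). All 8 medians lie between -0.035 and 0.078.

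The templates of the ribosome could be read for 2 genes, chosen after their values were seen. COX1 and COX2, subunits of cytochrome oxidase encoded in mitochondrial DNA, had 43858 to 52320 and 41601 to 49794 on hyperthyroid arrays against 60731 to 73155 and 62611 to 83724 on control arrays. No array of 1 group lay within the other (log2 fold change -0.53 ± 0.12 and -0.71 ± 0.13 (SE), limma adjusted p = 0.186 and 0.0860). After quantile normalization they gave 0.088 and -0.10. They are among the brightest probe sets, and the 100 brightest held 22.4% to 25.1% of all signal on hyperthyroid and 26.4% to 28.4% on control arrays. The part of that difference in their values was not tested.

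Beside other sets of the same fit, the mitochondrial ribosomal proteins (median -0.0012, 15.1% with an unadjusted limma p under 0.05) can be read with 45 cytosolic ribosomal proteins (-0.053, 17.8%) and 34 subunits of respiratory complex I (-0.14, 17.6%). The share of all genes tested was 10.6%. Groups did not overlap in 12.3% of the mitochondrial, 26.7% of the cytosolic and 11.8% of the complex I genes, against 6.55% of all. The cytosolic and complex I sets were brighter, with medians of the mean log2 value of 12.7 and 12.5 against 9.62. No member of either of these brighter sets passed over all genes, and no difference between the sets was tested.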

How the data were processed

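RNA of 8 muscles, each from 1 rat, was hybridised to 1-colour Affymetrix arrays after oligo(dT)-primed amplification, per the labels' protocols. The authors deposited linear intensities made with GCOS, per the submitters' processing notes, in a version not stated here. The trimmed mean (2% off each end) of every array was 150, so differences in total RNA between arrays are lost. Of 31099 probe sets, 57 controls were left out, and 20826 carried 1 symbol in the platform annotation. The scale used was log2(intensity + 3.41), where 3.41 is the 10th percentile of intensity, so fold changes of dim transcripts are understated. Probe sets were kept above the 40th percentile of mean log2 value (an intensity of 22.5), which left 10194 genes, each by its brightest probe set. limma 3.58.1 in R 4.3.3 fitted hyperthyroid against control over all genes, with a variance trend, two-sided, with Benjamini-Hochberg adjustment. It was tested on simulated data. Probe sets other than the brightest were fitted over all probe sets. No replicate block was fitted, as no number is shared. P-values set the difference between groups against the spread within groups. With 1 array per rat, differences between rats, of sex among them, and between hybridisations cannot be told apart in that spread.

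All 73 members matched RefSeq genes (GRCr8) by Entrez identifier. The members, lists and tests were chosen with earlier results of these data known, so lists have counts and medians without a test. Named were members past the adjusted threshold, with an unadjusted p under 0.05, with groups that did not overlap, the 4 highest and 4 lowest of each subunit, the Mrps18 genes, up to 3 genes of each partner list, and 5 regulators. Alternatives were 3 normalizations, 2 pseudocount settings, 2 filters, 3 variance models, averaged probe sets, subunits by structure, each array left out, and control replicates 7 and 11 left out.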

Additional observations from a re-analysis of the deposited data

Results flagged for a closer look

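In groups of 4 arrays, 1 array can stand apart from the other 3 by most of the range. Of 94 groups examined, covering the genes named and the subunit medians, 7 had such an array, and chance alone gives about 1 in 20.

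Hyperthyroid replicate 3 was the high array of Mrpl21, at an intensity of 801 against 609 to 629 on the others, and of Mrpl57, at 561 against 476 to 484. It was also high for the release factor Mtrf1, at 292 against 250 to 256. Control replicate 9 was high for Gabpa, at 312 against 193 to 210, and for Prorp, at 355 against 253 to 267. Hyperthyroid replicate 1 was low for Slirp, at 1528 against 2140 to 2230, and hyperthyroid replicate 2 was high for COX1, at 52320 against 43858 to 45189.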

How the results depend on the processing

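The number of members past the threshold, 1 in the fit as reported, was 0 after quantile normalization, without a variance trend, with probe sets averaged, and with control replicates 7 and 11 both left out, and ran from 0 to 1 with single arrays left out. It was 1 under the other 8 alternatives, each time Mrps18c. Centred on array medians and scaled to the hybridization controls, the small-subunit median was 0.24 and 0.34 and the large-subunit median 0.21 and 0.31, with the medians of all genes at 0.22 and 0.32. Under the other alternatives the medians and their difference moved by less than the spread between arrays, though leaving out the variance trend, the robust prior and the filters cannot move them; with single arrays left out they ran from -0.024 to 0.090 (small), -0.036 to 0.037 (large) and 0.0038 to 0.053 (difference). Scaled to the hybridization controls, Mrpl16, Mrpl40, Mrpl57, Mrps12, Mrps18a, Gadd45gip1 and Ptcd3 turned to 0.0098, 0.022, 0.070, 0.11, 0.27, 0.21 and 0.15. Centred on medians, Mrps12, Mrps18a, Gadd45gip1 and Ptcd3 were at 0.0054, 0.17, 0.11 and 0.048. Quantile normalization gave -0.0093 for Mrps18b and 0.088 for COX1, and array weights -0.0024 for Mrps18b. With control replicates 7 and 11 left out, Mrps18b was at -0.14 and Gabpa at -0.065, and with probe sets averaged Ppargc1a was at -0.087. With single arrays left out, Mrps18a ran from -0.14 to 0.017, Mrps18b from -0.096 to 0.090 and Nrf1 from -1.29 to 0.11. The 0.11 of Nrf1 arose because another of its probe sets became the brightest without control replicate 9, the only such switch among the members and named genes; with the probe set kept, a fit chosen after seeing the data, it was -0.84. COX2 passed with a robust variance prior (limma adjusted p = 0.0177). The causes were not tested. No paired analysis was possible because the groups share no replicate number.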
